A study of Mus musculus with 165 samples.

Results

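The genes described here are 10 genes of fatty acid synthesis, Fasn, Scd1, Acly, Acaca, Srebf1, Me1, Elovl6, Thrsp, Mlxipl and Gpam, out of 55471 gene identifiers in the count tables of mouse liver and brain. They were chosen by name, as the rows of both tables whose Ensembl identifier carries 1 of these symbols. All 10 were found once in each table, and all 10 passed the filter on low counts in both tissues. Polyadenylated RNA was sequenced from mice of the strain C57BL/6J/Ukj that were kept for ageing, with no treatment or altered allele named in the labels. The liver was measured at 3, 9, 15, 24 and 28 months in 16, 16, 16, 17 and 18 mice, and the brain in 15, 16, 16, 17 and 18 mice. Liver and brain libraries that share an age and a number are from the same animal, and 82 mice have both. Every library belonged to 1 of 3 library preparations (prep 1 to prep 3 below), each of which held all 5 ages. Within a tissue each library is a separate mouse, so the spread given is that between mice.

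Fatty acid synthesis builds long-chain fatty acids from citrate that leaves the mitochondrion. Acly splits citrate into acetyl-CoA, Acaca carboxylates acetyl-CoA to malonyl-CoA, and Fasn condenses these units into palmitate with NADPH, part of which comes from the malic enzyme Me1. Elovl6 lengthens palmitate, Scd1 puts in a double bond, and Gpam attaches the first acyl chain to glycerol-3-phosphate on the way to triglyceride. In the liver the transcription factors encoded by Srebf1 (SREBP-1, driven by insulin) and Mlxipl (ChREBP, driven by carbohydrate) are known to raise the transcription of these enzymes, and Thrsp (Spot 14) encodes a nuclear protein abundant in lipogenic tissue.

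Total counts, in megacounts (M), ran from 5.82 to 57.5 M per liver library and from 11.5 to 73.4 M per brain library, with medians of 32.9 and 37.6 M. The lowest level of any of the 10 genes in any library was 3.50 CPM (counts per megacount of the library, scaled for composition with TMM factors), for Mlxipl in a brain. The labelled tissues were checked against their markers. The summed level of 8 hepatocyte genes was at least 32558 CPM in every liver, and that of 5 neuron genes was at least 3108 CPM in every brain against at most 55.0 CPM in a liver. At 3 months, 5 livers stood apart from the other 11 of that age over all genes (replicates 10, 12, 13, 15 and 16). Their median correlation over all other genes with the remaining livers of their age was at most 0.975, where that of the others was at least 0.983. They came from all 3 preps. Livers were set apart in this way at 3 months only. By the same measure no liver of 28 months exceeded 0.978, and the lowest liver of 24 months had 0.932.

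The promoters of Fasn and Mlxipl are shown because Fasn is the gene with which the other members are correlated below, and Mlxipl is the regulator that fell with age. The sequences are the 250 bases before the RefSeq transcription start (GRCm38.p6), 5′ to 3′ on the gene's strand. Capitals mark CCAAT, the box bound by NF-Y, and CACGTG, an E-box, on either strand. Fasn lies on chromosome 11 from 120805846 to 120824547 on the minus strand, and its window at chr11:120824548-120824797 held CCAAT 3 times, of which a pair shares letters in CCAATTGG.
Fasn: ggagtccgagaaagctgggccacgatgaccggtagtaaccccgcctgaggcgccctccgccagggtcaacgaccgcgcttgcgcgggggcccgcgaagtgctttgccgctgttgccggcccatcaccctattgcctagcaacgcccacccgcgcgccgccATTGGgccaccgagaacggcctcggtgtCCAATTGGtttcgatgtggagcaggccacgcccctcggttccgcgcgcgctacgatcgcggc
Mlxipl lies on chromosome 5 from 135089890 to 135138382 on the plus strand, and its window at chr5:135089640-135089889 held CCAAT once and CACGTG once.
Mlxipl: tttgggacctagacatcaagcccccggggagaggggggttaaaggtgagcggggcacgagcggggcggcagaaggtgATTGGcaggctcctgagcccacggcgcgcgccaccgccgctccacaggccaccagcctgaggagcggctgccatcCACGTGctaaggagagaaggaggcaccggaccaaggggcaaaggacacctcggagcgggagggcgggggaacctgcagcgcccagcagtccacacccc
Promoters were given for 9 of the 10 genes, 14 in all because some genes have several starts. At least 1 CCAAT was found for 6 of the 9 genes, in 7 of 14 promoters, and 33.8% of 32851 promoters of the same length held it. CACGTG was found in 1 of the 14 and in 6.02% of all, and the sterol regulatory element core TCACNCCAC in 1 of the 14, the second Mlxipl start, and in 1.05% of all. Such matches describe the letters in these windows only.

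**Figure D1:**
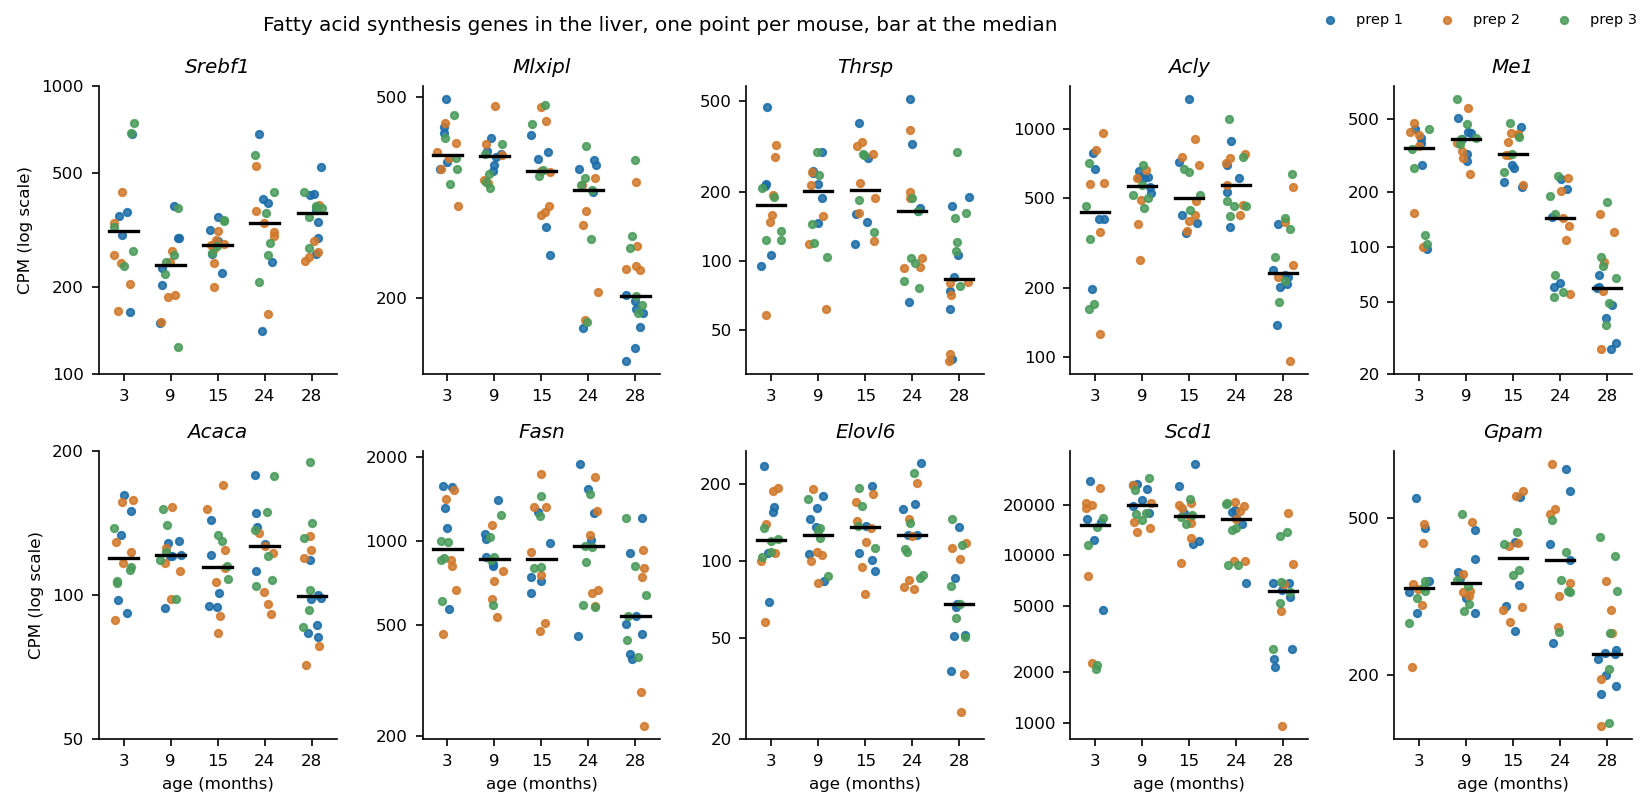
Level of each gene in every liver, as CPM on a log axis, by age in months. Each point is 1 mouse, coloured by prep, and the bar is the median of the age. The medians of all genes but Srebf1 are lowest at 28 months, and the ranges of 3 and 28 months overlap for each gene.

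Between 28 and 3 months 8 of the 10 genes were lower (edgeR quasi-likelihood test, Benjamini-Hochberg adjustment over all 15579 genes tested, called at an adjusted p under 0.05, as for all calls below), and none was higher. The exceptions were Acaca and Srebf1. Of all genes tested, 61.9% were called in this comparison, and 30% were called lower, so a call is common here. The median log2 fold change of the 10 genes was -0.74, beside 0.01 over all genes tested. Between 28 and 24 months, where 15.3% of all genes were called and 9.13% called lower, the same 8 genes were lower, with a median over the 10 of -0.73 beside 0.02 over all genes. Srebf1 alone of the 10 was called at 9 against 3 months, where 4.69% of all genes were. At 15 against 3 months 0 of the 10 were called (7.32% of all genes, or 1140). Without the 5 livers of 3 months that stood apart, 369 genes were called. At 24 months 2 of the 10 were called against 3 months, both lower (49% of all genes called, 24% lower), and 2 against 15 months (36%). At 15 months no member had an unadjusted p under 0.05 either, and DESeq2 called 0. In the test of all ages together 9 of the 10 were called, all but Acaca, against 71.5% of all genes.

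**Figure D2:**
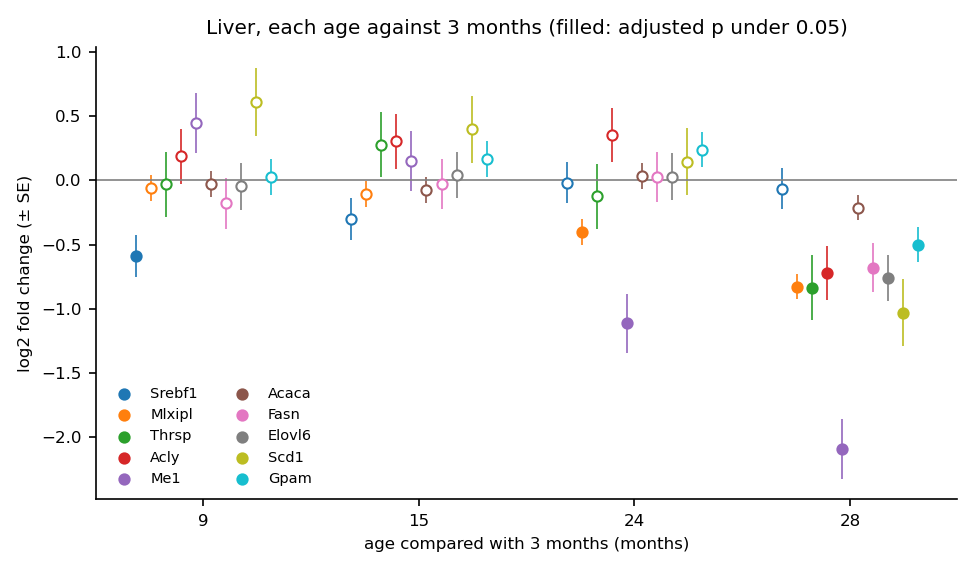
Log2 fold change in the liver of each gene at 9, 15, 24 and 28 months against 3 months, with its standard error (edgeR). Filled points have an adjusted p under 0.05. At 28 months 8 genes lie below 0 and are filled, while at 24 months only Me1 and Mlxipl are.

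Supply of carbon and NADPH comes first in the pathway. Me1, which yields NADPH from malate, changed most of the 10. Its levels in the liver ran from 96.7 through a median of 349 to 479 CPM at 3 months, and from 27.4 through 59.8 to 176 CPM at 28 months. The 11 livers of 3 months outside the set that stood apart held at least 269.7 CPM, above every liver of 28 months, while the 5 that stood apart held 96.7 to 153 CPM and overlapped them. This split was made after the values were seen, and how many other genes it separates was not counted. At 24 months the Me1 levels already lay lower, at 53.1, 144 and 243 CPM. The log2 fold change of Me1 was -2.09 ± 0.23 (SE) at 28 against 3 months (adjusted p = 3.47e-12), -1.11 ± 0.23 at 24 against 3 months (adjusted p = 4.51e-05) and -0.98 ± 0.22 at 28 against 24 months (adjusted p = 0.00105). Me1 was thus the only member besides Mlxipl that fell in both late steps. Acly, the ATP citrate lyase, held 126, 432 and 956 CPM as lowest, median and highest level at 3 months, 564 CPM in the median at 24 months and 96.2, 234 and 631 CPM at 28 months. The ranges overlapped, with the 3-month livers numbered 10, 13, 15 and 16 at 126 to 198 CPM. Acly differed by -0.72 ± 0.21 between 28 and 3 months (adjusted p = 0.00197) and by -1.08 ± 0.20 between 28 and 24 months (adjusted p = 8.92e-05).

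Of the pair of enzymes that commit carbon to fatty acid, Fasn was called between 28 and 3 months and Acaca narrowly was not, and no test compared them. Acaca, the cytosolic acetyl-CoA carboxylase, held 88.8, 119.7 and 162 CPM as lowest, median and highest level at 3 months and 71.3, 99.3 and 189.8 CPM at 28 months. Its groups overlapped nearly whole, and 1 liver of 28 months, replicate 15, had the highest level of all livers. The log2 fold change was -0.21 ± 0.10 at 28 against 3 months (adjusted p = 0.0558), so Acaca was not called. Leaving out replicate 15 of 28 months gave -0.27 (adjusted p = 0.0102), and 14 of 83 such fits with 1 library left out called it. Fasn, the fatty acid synthase, held 462, 930.4 and 1573 CPM at 3 months and 216, 537 and 1211 CPM at 28 months. At 24 months its median of 958 CPM was close to that of 3 months, and the highest Fasn level of any liver, 1885 CPM, belonged to that age. Fasn differed by -0.68 ± 0.19 between 28 and 3 months (adjusted p = 0.00152) and by -0.71 ± 0.19 between 28 and 24 months (adjusted p = 0.0054), with 0.03 ± 0.19 between 24 and 3 months (adjusted p = 0.923).

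Elovl6 and Scd1, which lengthen and desaturate the chain, were both lower at 28 months than at 3 and at 24 months. Elovl6 held 57.7, 120.4 and 235 CPM as lowest, median and highest level at 3 months and 25.6, 67.5 and 146 CPM at 28 months. It fell by 0.76 ± 0.18 at 28 against 3 months (adjusted p = 0.000165), and fell by 0.79 ± 0.18 against 24 months (adjusted p = 0.000739). Scd1, the desaturase that makes oleate, was the most abundant of the 10 per kilobase of exon, at 3203 CPM per kb over all livers, and it ranked first and Acaca last at each age. The second place was held by Me1 at 3 months (90.7 CPM per kb), by Acly at 9, 15 and 24 months (106, 94.0 and 107 CPM per kb) and by Srebf1 at 28 months (64.1 CPM per kb), with no test between genes. Its levels were 2100.0, 15145 and 27689 CPM at 3 months, 13649.8, 19992 and 28836 CPM at 9 months and 958, 6120.2 and 17866 CPM at 28 months. Among the livers of 3 months, replicates 10, 13, 15 and 16 held 2100.0 to 4732 CPM and the other 12 at least 7519 CPM. Scd1 differed by -1.03 ± 0.26 between 28 and 3 months (adjusted p = 0.00042) and by -1.18 ± 0.25 between 28 and 24 months (adjusted p = 0.000539). Gpam, which starts glycerolipid assembly, held 209, 332 and 559 CPM at 3 months and 148, 226 and 448 CPM at 28 months, and fell by 0.50 ± 0.14 (adjusted p = 0.000998). Scd1 may share reads with Scd2, Scd3 and Scd4, its close relatives.

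Of the regulators, Mlxipl fell and Srebf1 was not called between 28 and 3 months. Mlxipl held 304, 384 and 496 CPM as lowest, median and highest level at 3 months, 175, 328 and 399.7 CPM at 24 months and 149.9, 202 and 375 CPM at 28 months. Its log2 fold change was -0.40 ± 0.10 at 24 against 3 months (adjusted p = 0.000591) and -0.83 ± 0.10 at 28 against 3 months (adjusted p = 4.32e-11). The Mlxipl levels at 3 months had an SD of 0.19 on the log2 scale, and all but 2 livers of 28 months, replicates 10 and 15, lay below the lowest of them. Srebf1 held 164, 314 and 746 CPM at 3 months, 125, 239 and 383 CPM at 9 months and 246, 361 and 522 CPM at 28 months. Srebf1 was lower at 9 than at 3 months, with a log2 fold change of -0.59 ± 0.16 (adjusted p = 0.0218), and differed by -0.07 ± 0.16 between 28 and 3 months (adjusted p = 0.739). The 9-month call rested on the livers of 3 months numbered 10, 13, 15 and 16, with 430.1 to 746 CPM, since leaving out any single one of them took the adjusted p to between 0.0583 and 0.0808, and without all 5 livers that stood apart it was 1. Thrsp held 58.1, 175 and 471 CPM at 3 months and 36.4, 83.0 and 301 CPM at 28 months, and fell by 0.84 ± 0.25 (adjusted p = 0.00314). Between 28 and 24 months Thrsp fell by 0.71 ± 0.25 (adjusted p = 0.0394), a call kept in 67 of 83 fits with 1 liver left out, with an adjusted p of up to 0.131 without replicate 12 of 24 months.

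The 5 livers of 3 months bear on every comparison with that age, and leaving them out trims that age alone. Without them, an alternative chosen after the values were seen, 9 of the 10 genes were called between 28 and 3 months, Acaca among them at -0.34 (adjusted p = 0.00524), and Me1 stood at -2.48 and Scd1 at -1.47. A summary of 9 genes of fasting (a mean of z-scores) was between -0.88 and -0.28 in these 5 livers and between -0.12 and 0.96 in the other 11, and its part in the result was not tested in them.

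The preps were also fitted 1 at a time, with no test of a difference between them. In prep 1 alone, with 5 livers of 3 and 7 of 28 months, 9 of the 10 genes were called between these ages, where 39.9% of all genes were. Prep 2 alone (6 and 5 livers) called 3 of the 10 and 15.6% of all genes. Prep 3 alone (5 and 6 livers) called 2 of the 10 and 42.2% of all genes. The 8 genes called over all preps had a log2 fold change below 0 in each prep. Me1 and Mlxipl were called in each, at -2.74, -1.87 and -1.62 for Me1 and -1.23, -0.56 and -0.67 for Mlxipl. Scd1 was -1.74, -1.01 and -0.25 in preps 1, 2 and 3, and Thrsp -1.10, -1.66 and -0.03. Between 28 and 24 months the preps called 9, 0 and 0 of the 10, and 16.2%, 0% and 1.24% of all genes.

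Clock genes and immune cell genes moved with age in the same livers. A clock score, the mean z-score of 7 genes that peak with Dbp minus that of 3 that peak opposite (Arntl, Npas2 and Clock), had a median of 1.52 at 28 months (range -1.52 to 5.07) and medians of -1.12 to -0.55 at the other ages. With this score as a covariate 4 of the 10 genes stayed called between 28 and 3 months, where 52.7% of all genes were called. These were Me1 at -1.85 (adjusted p = 1.06e-07), Mlxipl at -0.67 (adjusted p = 3.76e-06), Thrsp at -0.83 (adjusted p = 0.032) and Elovl6 at -0.52 (adjusted p = 0.0371). Fasn was -0.39 (adjusted p = 0.184), Scd1 -0.67 (adjusted p = 0.0616), Acly -0.24 (adjusted p = 0.413) and Gpam -0.22 (adjusted p = 0.266). Between 28 and 24 months 0 of 10 were called with the covariate, and 280 genes in all (1.8%). With the fasting score as the covariate 8 of 10 were called between 28 and 3 months, and 58.7% of all genes. The summed level of 6 macrophage genes had a median of 375 CPM at 3 months (308 to 1092 CPM) and 999 CPM at 28 months (499 to 3813 CPM), with all 6 called higher, and that of 7 lymphocyte genes 8.82 CPM (6.35 to 30.9 CPM) and 39.6 CPM (17.4 to 283 CPM), with all 7 called higher. None of these markers was at 0 in all livers of either age, and their part in the result was not tested. The 8 hepatocyte genes had medians of 101711 CPM (70229 to 113926 CPM) and 107803 CPM (32558 to 126133 CPM), with 4 called lower. Of 7 stellate and duct genes 4 were called higher (summed 46.3 to 197 CPM at 3 months and 52.8 to 352 CPM at 28 months), and their part was not tested. The summed level of 6 adipocyte genes, a cell type that also makes these enzymes, was at most 9.35 CPM in any liver of 3 months and 2.53 CPM in any of 28 months. Only 1 adipocyte gene passed the filter on low counts, and it was called lower. In bulk tissue fewer cells of a type and less RNA per cell cannot be told apart.

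The level of Fasn in a liver was compared with that of the other members. With the means of each age and prep taken out, the level of Fasn correlated with all 9 other members over 83 livers, with Pearson's r from 0.39 for Srebf1 to 0.84 for Elovl6 (adjusted p between 0.0019 and 0.0115, 100000 permutations within age, whose smallest possible p is 1e-05, adjusted over 15578 genes). Of all genes, 4.64% were called in this way. Elovl6 ranked 1, Gpam (r = 0.81) 2 and Thrsp (r = 0.75) 3 of the 15578 by r. The 5 genes outside the 10 with the highest r were Pklr (0.74), Slc25a44 (0.74), Tmie (0.69), Snrk (0.67) and Pnpla3 (0.66). Spearman's rho was 0.85 for Elovl6 and 0.41 for Srebf1, and r without the 2 livers farthest from the median of Fasn was 0.85 and 0.38. Within preps r of Elovl6 was 0.70, 0.94 and 0.81, and of Srebf1 0.58, 0.22 and 0.45. Of the pairs of Srebf1 with an enzyme, r was -0.22 with Scd1, -0.16 with Me1, -0.10 with Acly, 0.05 with Elovl6, 0.06 with Acaca, 0.32 with Gpam and 0.39 with Fasn, with no test between pairs, where Scd1 and Acly had an r of 0.80 with each other.

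**Figure D3:**
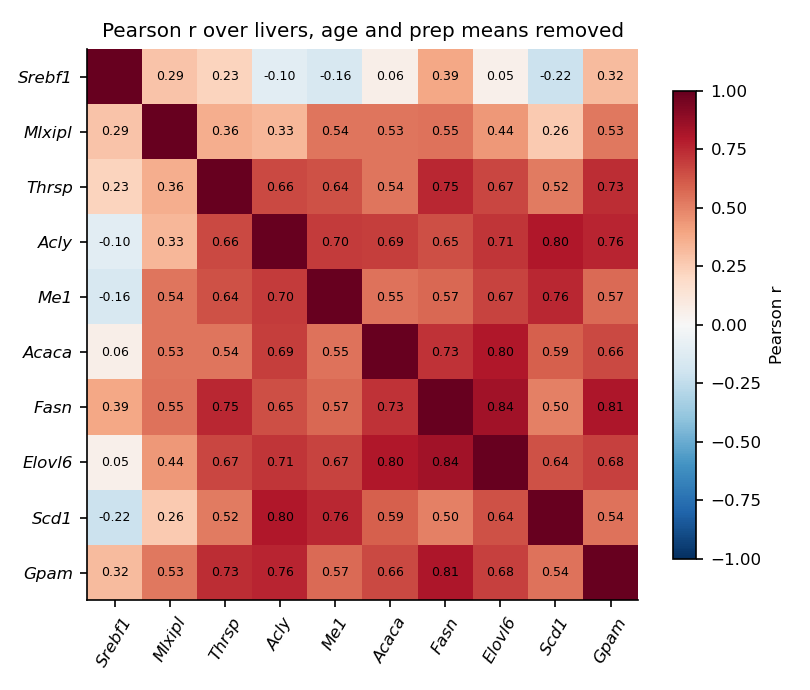
Pearson's r between every pair of the 10 genes over 83 livers, on log2 CPM with age and prep means taken out (colour and number). The enzymes correlate at 0.50 to 0.84 with each other, while Srebf1 lies between -0.22 and 0.39 with every other gene.

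The spread between livers was compared between 28 and 3 months. The absolute deviation from the median of the age was compared with limma, and 0 of the 10 genes were called (1.72% of all genes), 1 of them, Srebf1, with an unadjusted p under 0.05, as were 2832 of all 15579 genes. The deviation of Srebf1 was 0.48 at 3 months and 0.22 at 28 months on the log2 scale (28 minus 3, -0.27 ± 0.10, adjusted p = 0.137). With the deviation taken from the age mean, 1 of the 10 was called, and 9.51% of all genes.

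**Figure D4:**
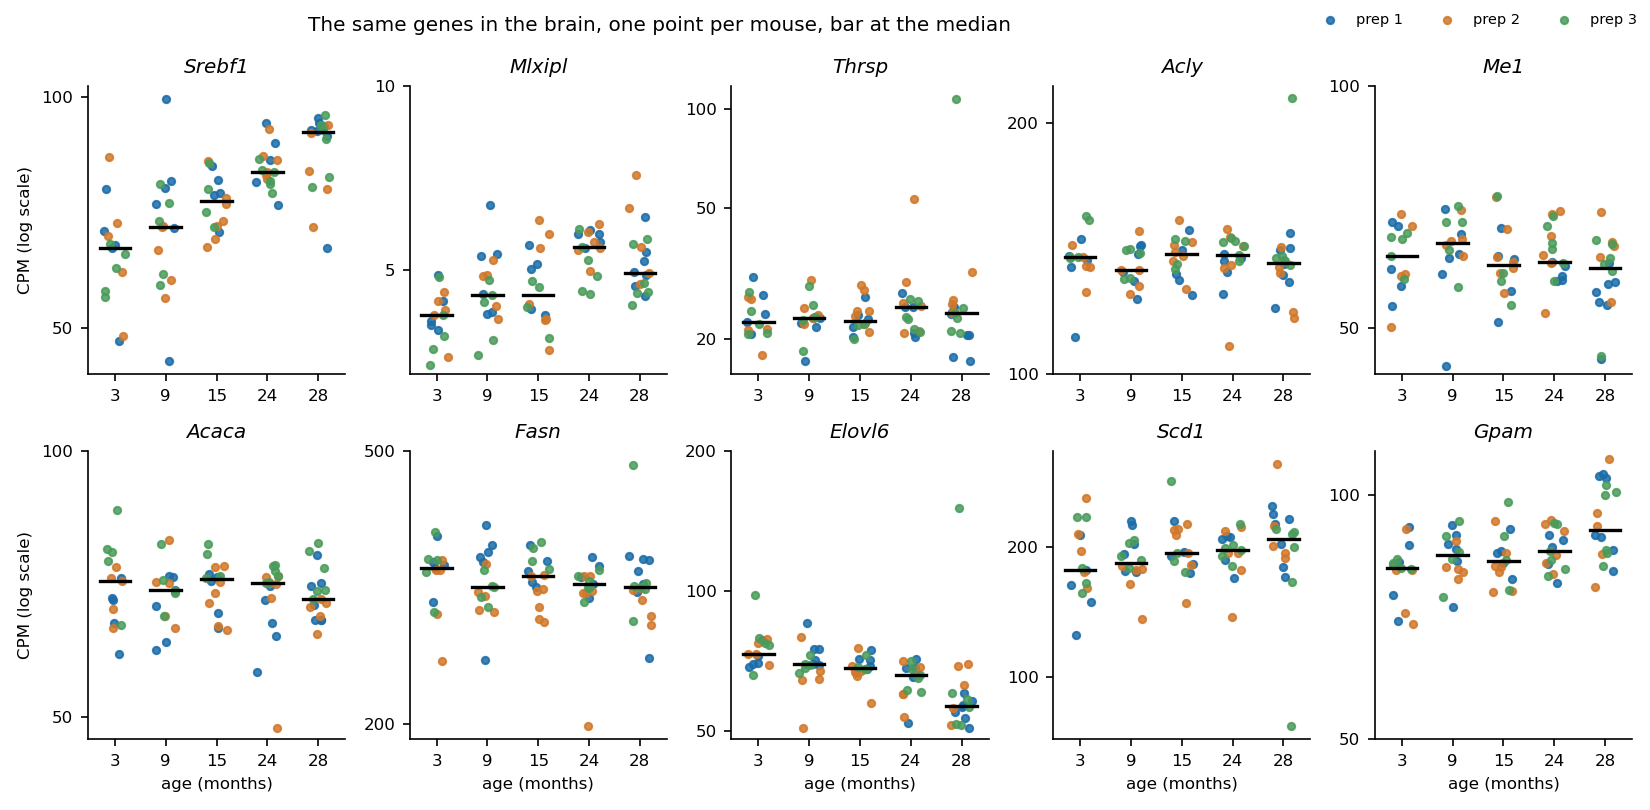
Level of the same genes in every brain, as CPM on a log axis, by age in months, 1 point per mouse coloured by prep, bar at the median. The levels lie in narrow bands, and 1 brain of 28 months, replicate 15, is far above the others for Elovl6 and Thrsp.

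In the brain 3 of the genes rose and 1 fell. Between 28 and 3 months 4 of the 10 were called (28.3% of all 18711 genes tested), 3 of them higher. A fit of only those 2 ages called 3 (17% of all genes), and voom called 5 (40.5%). Srebf1 rose, from 48.1, 63.4 and 83.5 CPM as lowest, median and highest level at 3 months to 63.4, 89.9 and 94.7 CPM at 28 months, a log2 fold change of 0.44 ± 0.06 (adjusted p = 4.76e-08). Mlxipl rose by 0.31 ± 0.06 (adjusted p = 4.43e-05) from a median of 4.21 to 4.94 CPM, and Gpam by 0.21 ± 0.04 (adjusted p = 0.000109). Elovl6 fell by 0.27 ± 0.08 (adjusted p = 0.00419). Between 24 and 3 months Srebf1 and Mlxipl were higher and Elovl6 lower (10.1% of all genes called), and 4 of 10 were called over all ages together (20.6%). The Elovl6 call at 24 months (adjusted p = 0.0458) was kept in 57 of 82 fits with 1 brain left out, with an adjusted p of up to 0.107 without replicate 16 of 3 months. The brain least like the others of its age over all genes, replicate 15 of 28 months, held 151 CPM of Elovl6 and 107 CPM of Thrsp, where the other brains of that age held at most 69.7 and 31.9 CPM, and its Scd1 was the lowest at 76.7 CPM. Marker genes of other cell types also differed between 28 and 3 months in the brain. All 4 tested macrophage genes were called higher, with a summed level over the list of 19.6 to 30.6 CPM at 3 months and 35.3 to 76.4 CPM at 28 months that did not overlap. Of 4 astrocyte genes 2 were called higher and 1 lower (summed 1048 to 1295 CPM and 707 to 1945 CPM), and of 5 oligodendrocyte genes 1 was called higher (2013 to 10144 CPM and 3141 to 14096 CPM). Of 5 tested stellate and duct genes 3 were called lower (12.3 to 29.9 CPM and 8.96 to 19.9 CPM), of 5 tested pituitary and choroid genes 2 lower (44.6 to 6884 CPM and 43.6 to 5180 CPM), of 3 tested lymphocyte genes 1 higher (1.15 to 4.43 CPM and 0.459 to 7.25 CPM), and of 5 neuron genes 0. None of these markers was at 0 in all brains of either age, and their part in the result was not tested. Scd1 was called higher without replicate 15 of 28 months, at 0.20 (adjusted p = 0.0448), and was not called with it (0.14 ± 0.09, adjusted p = 0.233). Thrsp was not called (0.20 ± 0.13, adjusted p = 0.237), and ranged from -0.03 to 0.25 over fits with 1 brain left out. Elovl6 ranged from -0.39 to -0.24 over those fits and was called in all 82.

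**Figure D5:**
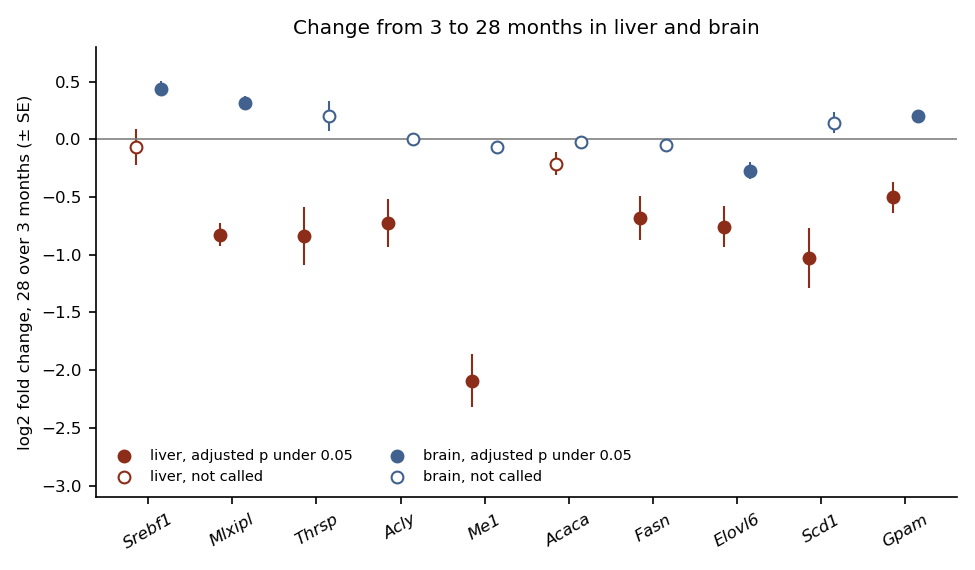
Log2 fold change from 3 to 28 months (± SE) in liver and brain for each gene, filled where the adjusted p is under 0.05. In the liver 8 genes lie below 0 and are filled. In the brain Srebf1, Mlxipl and Gpam lie above 0 and Elovl6 below, all filled, and the other 6 are open, with Thrsp at 0.20 and Scd1 at 0.14. With 1 brain left out Thrsp fell as low as -0.03.

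The change from 3 to 28 months differed between the tissues for 9 of the 10 genes, all but Acaca (49.2% of all 14035 genes tested in both). The liver minus brain difference was -1.99 ± 0.24 for Me1 (adjusted p = 3.81e-12), -1.10 ± 0.12 for Mlxipl (adjusted p = 2.62e-14), -1.14 ± 0.28 for Scd1 (adjusted p = 0.000352) and -1.005 ± 0.29 for Thrsp (adjusted p = 0.00224). The Thrsp difference ranged from -1.16 to -0.78 with 1 library left out and was called in all 67 fits. That of Elovl6 was -0.45 ± 0.19 (adjusted p = 0.0469). It kept this call in 34 of 67 fits with 1 library left out, with the highest adjusted p, 0.125, without replicate 15 of the brains of 28 months. Srebf1 differed by -0.46 ± 0.17 (adjusted p = 0.0215), and lost the call without replicate 10, 15 or 16 of the livers of 3 months (adjusted p between 0.0563 and 0.0658). With the mouse as a block, since both tissues come from the same mice, 8 of the 10 were called (45% of all genes), and Srebf1 was not (-0.37, adjusted p = 0.0687). With the clock score of each tissue as a covariate 3 of the 10 were called, and 40.6% of all genes. By level, Scd1, Srebf1, Mlxipl and Gpam were higher in every liver than in any brain, a pattern that 10.4% of the genes shared. Median levels of Mlxipl differed 72.6-fold and those of Scd1 80.8-fold between the tissues. Levels were scaled within each tissue and not between them, which limits these comparisons of level. Between the liver and the brain of the same mouse, 0 of the 10 genes correlated by the permutation test over 82 mice (1.97% of all genes called), 0 had an unadjusted p under 0.05, Spearman's rho called 0 as well, and r ran from -0.14 for Scd1 to 0.20 for Acly.

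Around the 10 genes, lists of textbook pathway genes were counted in the liver at 28 against 3 months, in a background of 31.9% of genes called higher and 30% called lower. Of 6 tested genes of malonyl-CoA turnover and of synthase partners, 6 were lower and 0 higher, with a median of -0.48. They were Acacb, Aasdhppt, Mlycd, which breaks down malonyl-CoA, and Mcat, Oxsm and Mecr, which belong to the separate fatty acid synthesis of mitochondria. Acacb, the mitochondrial carboxylase whose malonyl-CoA holds back fatty acid import, had a median of 183 CPM at 3 months and 52.5 CPM at 28 months, a log2 fold change of -1.08 ± 0.24 (adjusted p = 5.43e-05), and Aasdhppt, which activates the synthase, fell by 0.64 ± 0.06 (adjusted p = 3.14e-16). Of 14 genes of carbon and NADPH supply, 11 were lower and 0 higher (median -0.37). Pklr, the liver pyruvate kinase, fell by 1.12 ± 0.17 (adjusted p = 6.25e-08).

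Of 13 tested genes of elongation and desaturation, 10 were lower and 2 higher (median -0.37). Elovl3 had a median of 619 CPM at 3 months (236 to 1203 CPM) and 0.992 CPM at 28 months (0.248 to 405 CPM), a log2 fold change of -5.17 ± 0.74 (adjusted p = 8.38e-09). Elovl5 fell by 1.25 ± 0.20 (adjusted p = 8.24e-08). Scd2 went the other way, from 13.5 to 51.6 CPM in the median, by 1.80 ± 0.24 (adjusted p = 1.79e-09). Scd3 was called lower at -2.09 ± 0.77 (adjusted p = 0.0154), but 11 of 16 livers of 3 months and 13 of 18 of 28 months held 3 counts or fewer of it, and Scd4 did not pass the filter on low counts. Of 16 genes of glycerolipid assembly, 8 were lower and 2 higher (median -0.19). Acsl1, an acyl-CoA synthetase, fell by 1.11 ± 0.13 (adjusted p = 6.32e-11), and Mogat1 fell by 1.45 ± 0.30 (adjusted p = 2.68e-05).

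Among 15 regulators, 6 were lower and 4 higher (median -0.06), with Insig2, which retains SREBP in the endoplasmic reticulum, at -0.77 ± 0.12 (adjusted p = 5.52e-08) and Mid1ip1, a relative of Thrsp, at -0.76 ± 0.19 (adjusted p = 0.000557). Among 12 genes of insulin and AMPK signalling, 4 were lower and 2 higher (median -0.01), led by Prkaa2 at -0.40 ± 0.09 (adjusted p = 4.82e-05) and Irs1 at -0.38 ± 0.12 (adjusted p = 0.006). Of 9 genes of fasting, 5 were lower and 2 higher (median -0.94), with Fgf21 at -1.93 ± 0.44 (adjusted p = 0.00011) and the glucose-6-phosphatase G6pc at -1.29 ± 0.29 (adjusted p = 8.21e-05).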

How the data were processed

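The authors deposited a table of unnormalized read counts for each tissue, with 55471 Ensembl identifiers as rows and 83 liver or 82 brain libraries as columns, and all columns were used (0 left out). Per the submitters' processing notes, cutadapt 2.8, HISAT2 2.1.0, SAMtools 1.9 and featureCounts (Subread 2.0.1) were named, with GRCm38.p6 and mm10 as builds. Whether counting used the strand is not given in the sources used here; Srebf1, Me1, Elovl6 and Mlxipl overlap exons of another gene in GENCODE M21, so their counts may hold its reads.

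Each tissue was fitted with edgeR 4.0.16 (R 4.3.3) on counts, with age and prep as terms, filterByExpr by age and TMM scaling. SE is the absolute log2 fold change over the square root of F. Levels are CPM; log2 CPM used a prior count of 2. Tissue differences came from a tissue by age term, spread from limma 3.58.1, and correlations from permutations. DESeq2 1.42.0, voom, other scalings, covariates, single preps and left-out libraries were alternatives. Liver counts of 15514 genes were simulated with 100 genes changed 1.5-fold and 100 changed 2-fold between 28 and 3 months. Of these, 84% and 95% were recovered, and 7 unchanged genes were called. No gene with low counts was changed and no prep effect was simulated. In the real comparison 61.9% of genes were called, so recovery there may differ. Numbers shared between ages mark different mice. With age and prep means taken out, same-numbered livers of different ages had a median correlation of 0.0091 over all genes. Pairs with other numbers had 0.00036. Named genes were the 10 members, the 2 called genes of each list with the largest change, relatives of members, and the 5 genes most correlated with Fasn. A gene that this rule names is not reported here. The members and lists were chosen with earlier results of these data known.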

Additional observations from a re-analysis of the deposited data

Results flagged for a closer look

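The change from 3 to 28 months differed between liver and brain by the tissue by age term of edgeR for 9 genes. The liver minus brain difference (log2) was -0.597 for Fasn, -1.14 for Scd1, -0.698 for Acly, -0.460 for Srebf1, -1.99 for Me1, -0.449 for Elovl6, -1.005 for Thrsp, -1.10 for Mlxipl and -0.671 for Gpam. For Srebf1 the liver change was not called and the brain change was upward, while for Elovl6 both were called lower. With the mouse as a block, Srebf1 lost the call (-0.37, adjusted p = 0.0687).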

How the results depend on the processing

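Of 505 pairs of a called member change and an alternative, 504 kept their direction and 412 also their call. In fits of 1 prep alone, preps 1, 2 and 3 gave 0, 0 and 0 members at 9 against 3 months (0.0773%, 0.0764% and 0.0188% of all genes), prep 1 and prep 3 gave 0 at 24 against 3 months (5.83% and 33.4%), preps 2 and 3 gave 3 and 2 at 28 against 3 months and 0 and 0 at 28 against 24 months, preps 1, 2 and 3 gave 0, 1 and 1 at 24 against 15 months (0.0193%, 16.7% and 8.09%), and preps 2 and 3 gave 3 and 2 over all ages (28.4% and 40.5%). In the brain they gave 0, 0 and 1 at 24 against 3 months (1.19%, 0.597% and 0.486%), preps 2 and 3 gave 0 and 1 at 28 against 3 months (1.96% and 6.36%), and the preps gave 1, 0 and 1 over all ages (4.84%, 1.42% and 1.99%). For the correlation with Fasn, preps 1 and 3 called 0 members and 0 of all 15578 genes. Few livers made up each prep, and the smallest possible permutation p before adjustment was 1e-05. Such counts therefore cannot show that the correlation was absent. In prep 1 r ran from 0.36 for Acaca to 0.77 for Thrsp. In prep 3 it ran from 0.31 for Scd1 to 0.87 for Acaca. The Srebf1 call at 9 against 3 months was lost (0) with the fasting score, voom, only those 2 ages, and without the 5 livers of 3 months. The fasting score took 24 against 15 months to 1. The clock score took 28 against 3 months to 4, 28 against 24 months to 0 and the difference between tissues to 3, and the spread from the age mean called 1. Of single genes, Thrsp at 28 against 24 months was reversed in prep 3 (0.36), and Srebf1 at 24 against 3 months in voom (0.34, adjusted p = 0.0377). The cause was not tested.

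With each library left out in turn, members called ranged from 0 to 1 at 9 against 3 months, 0 to 0 at 15 against 3, 2 to 2 at 24 against 3, 8 to 9 at 28 against 3, 2 to 2 at 24 against 15, 7 to 9 at 28 against 24 and 9 to 10 over all ages in the liver, 2 to 3, 4 to 5 and 3 to 4 at 24 against 3, 28 against 3 and all ages in the brain, and 8 to 9 for the difference between tissues. A replicate block on the number of the labels gave 1, 0, 2, 8, 2, 7 and 9 members in the liver and 2, 4 and 3 in the brain, losing Thrsp at 28 against 24 months and Elovl6 at 24 against 3 months in the brain; with the mouse as a block the tissue difference gave 8. The pairing across ages shares only a number. The brain and liver correlation without 2 livers was not run as a count. Depth limits little here, since 1 liver lay under 10 M counts. Over all genes, calls at 9 against 3 months numbered 731, with 185 under the fasting score, 398 with voom, 342 with only those ages, 101 without the 5 livers, 12, 12 and 3 in single preps and 293 to 1062 with 1 library left out, lowest (293 to 348) without replicate 10, 13, 15 or 16 of the livers of 3 months. At 15 against 3 months they numbered 1140, with 369 without the 5 livers, 708 with only those ages, 58, 64 and 14 in single preps and 604 to 734 without replicate 10, 13, 15 or 16 of 3 months. At 28 against 24 months they numbered 2385, with 280 under the clock score, 1152 with only those ages, 4502 with voom, 3616 without replicate 13 of 24 months, 3673 without the pair of livers least like the others, and 0 and 198 in preps 2 and 3; in the brain at 24 against 3 months 1882, with 4844 by voom, 3491 without replicate 15 of 28 months and 3193 without the pair of brains least like the others.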
